A study of Homo sapiens with 6 samples.

Results

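The genes that encode the TGF-β ligands, their receptors and the SMAD proteins were followed in CCD18Co cells, an established line of normal human colon fibroblasts, after silencing of *LTBP2*. The set held 10 genes, taken by their symbols from the 60663 genes of the deposited count table: the ligands *TGFB1*, *TGFB2* and *TGFB3*, the receptors *TGFBR1* and *TGFBR2*, the signal transducers *SMAD2*, *SMAD3* and *SMAD4*, and the inhibitors *SMAD7* and *SKIL*. Cells were transfected for 6 h with siRNAs against *LTBP2* (siLTBP2) or with non-targeting siRNAs (siNT), and RNA was collected at 48 h from 3 libraries of each group. All libraries came from the same line, grown in medium with serum, and nothing states that the 3 libraries of a group were separate cultures, so p-values measure only the spread between these libraries, which may be technical. Each group received 1 siRNA reagent, the control being a non-targeting pool, so that the loss of *LTBP2* and any other action of those siRNAs cannot be told apart.

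TGF-β is secreted in a latent form, held in the matrix by latent TGF-β binding proteins and released by integrins, proteases or thrombospondin. The active dimer binds the type II receptor TGFBR2, which phosphorylates the type I receptor TGFBR1. This kinase phosphorylates SMAD2 and SMAD3, which join SMAD4 and enter the nucleus to regulate target genes, among them the pathway's own inhibitors SMAD7 and SKIL. In fibroblasts the pathway is known for driving matrix production and contractility. LTBP2 belongs to the family of latent TGF-β binding proteins but, unlike its relatives, is not known to bind latent TGF-β.

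The libraries held 44663424 to 53576899 counts on genes. The 16920 genes with enough counts were tested with edgeR's quasi-likelihood test after TMM scaling, and all 10 genes of the set were among them. Levels are given as TMM-normalized CPM, counts scaled to a common library size, and a gene is called when its p-value, adjusted by Benjamini-Hochberg over all tested genes, was below 0.05. The median log2 fold change of all tested genes was -0.0056. *LTBP2* was at 24.98, 23.1 and 21.2 CPM in the siNT libraries and at 6.49, 8.61 and 6.00 CPM in the siLTBP2 libraries, so that 30.4% of its level remained (log2 fold change -1.72, adjusted p = 6.6e-05, edgeR quasi-likelihood). The fibroblast identity of the cells was checked with marker genes. The 10 fibroblast markers were all tested and summed to between 9990 and 14071 CPM in every library, without TMM scaling, and *PDGFRB* was the 1 called (log2 fold change -0.60). None of 7 epithelial markers passed the filter on low counts, with summed levels of at most 0.356 CPM. Of 7 immune markers, only *CSF1R* was tested, and it was called higher (log2 fold change 0.92, adjusted p = 0.030, edgeR quasi-likelihood). The list summed to between 0.870 and 1.31 CPM in siNT and between 1.41 and 1.79 CPM in siLTBP2, with *MS4A1* at 0. *CSF1R* had 30, 29 and 46 counts in siNT and 46, 61 and 85 in siLTBP2, and each other marker of the list at most 21 in any library. The part of the higher sum of this list in the results was not tested. Of 5 endothelial markers, *TEK* and *VWF* were tested, and the list summed to between 67.9 and 82.3 CPM in siNT and between 59.4 and 72.7 CPM in siLTBP2, while *PECAM1* and *CDH5* had at most 12 and 2 counts in any library.

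Of the 10 genes, 5 were called. *TGFBR2* and *TGFBR1* were higher in siLTBP2, and *TGFB2*, *SMAD3* and *SKIL* were lower. In such bulk libraries fewer cells of a kind and less RNA per cell cannot be told apart. Over all tested genes 19.3% were called, 9.76% higher and 9.51% lower. With the stricter thresholds of the study (adjusted p under 0.01, more than 2-fold), which 2.57% of the tested genes met, none of the 10 genes was called, and *TGFBR2*, with a fold change of 1.98, lay just under. The study applied these thresholds to edgeR's likelihood ratio test, by which 619 genes met them here, against 434 by the quasi-likelihood test. The number that the study itself reported lies between these counts, and why it differs from 619 was not tested. In 7 of the 10 genes the groups did not overlap, which held for 37% of all tested genes. For a single gene, 3 libraries against 3 cannot give an exact permutation p below 0.1, so the calls rest on the fit over all genes.

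**Figure D1:**
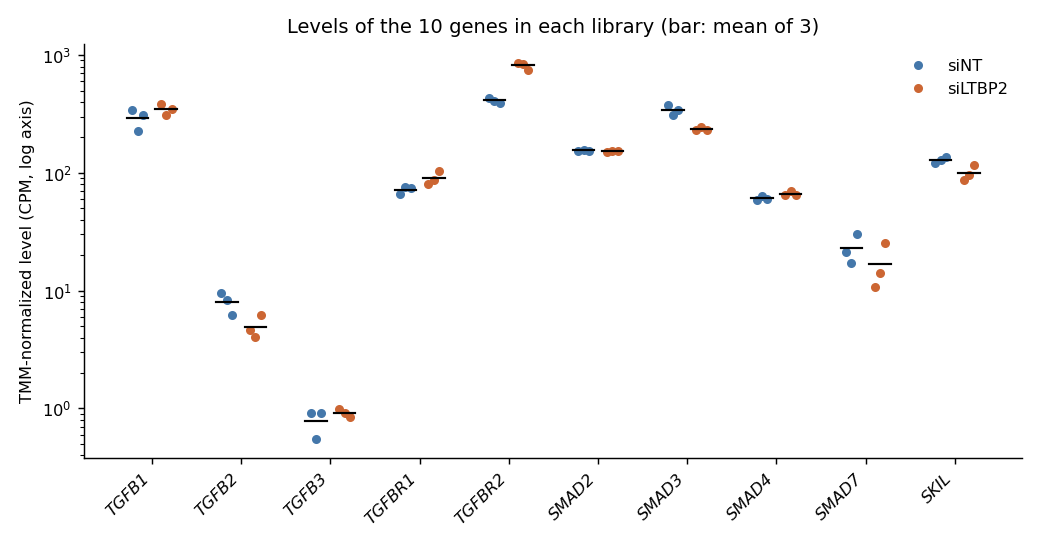
Level of each gene in each library (TMM-normalized CPM, log axis), with siNT in blue, siLTBP2 in orange and a bar at the mean of 3 libraries. *TGFBR2* had the clearest shift, from between 391 and 434 CPM to between 753 and 860 CPM, while the *SMAD2* levels of both groups lay between 149 and 158 CPM.

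The abundance of the genes was compared per kilobase of merged exons (RPKM, from the TMM-normalized CPM), since only levels per length can be set side by side between genes. In siNT the order was *TGFB1* (89.5 ± 18.5 RPKM), *TGFBR2* (60.1 ± 3.18), *SMAD3* (34.2 ± 3.30), *SKIL* (15.8 ± 1.04), *TGFBR1* (8.99 ± 0.628), *SMAD7* (5.80 ± 1.73), *SMAD2* (4.27 ± 0.0519), *SMAD4* (3.09 ± 0.132), *TGFB2* (1.32 ± 0.276) and *TGFB3* (0.151 ± 0.0400 RPKM, SD, n = 3). No neighbours in this order had overlapping ranges of libraries, although *SMAD7* (lowest 4.34 RPKM) and *SMAD2* (highest 4.33 RPKM) nearly touched. The order depends on the length used. Per kilobase of the canonical transcript, *TGFB1* (81.0 to 123 RPKM) overlapped *TGFBR2* (86.3 to 95.9 RPKM), and *SMAD7* (5.12 to 9.10 RPKM) overlapped *SMAD4* (6.69 to 7.25 RPKM). *SMAD4* then also lay above *SMAD2* (4.45 to 4.55 RPKM), without overlap, the reverse of their order per merged exon length. The canonical transcript of *SMAD2* has 34626 bases, with a 3′ untranslated region of 32870 bases, which sets its level per length low. In siLTBP2 the level of *TGFBR2* per merged exon length was 119 ± 8.21 RPKM, beside 106 ± 11.5 RPKM for *TGFB1* (SD, n = 3), and their ranges overlapped. Per canonical transcript length they did not, with 166 to 190 RPKM for *TGFBR2* and 111 to 139 RPKM for *TGFB1*.

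Among the ligands, *TGFB2* fell and the changes of *TGFB1* and *TGFB3* were not called. *TGFB2* lies on the plus strand of chromosome 1 (218345336 to 218444619, GRCh38). Its level was 9.51, 8.26 and 6.21 CPM in the siNT libraries and 4.61, 4.06 and 6.19 CPM in the siLTBP2 libraries. All siLTBP2 libraries were below all siNT libraries, but replicate 3 of siNT and replicate 3 of siLTBP2 lay side by side, with 335 and 326 reads. The fitted log2 fold change was -0.69 (SE 0.20, adjusted p = 0.035, edgeR quasi-likelihood), so that 61.9% of the siNT level remained. Without siNT replicate 3 it was -0.84 and without siLTBP2 replicate 3 it was -0.88, and the call held. Leaving out replicate 1 (-0.55) or 2 (-0.66) of siNT, or replicate 1 (-0.64) or 2 (-0.57) of siLTBP2, ended the call. The antisense gene *TGFB2-AS1*, whose exons overlap it, had at most 4 counts in any library.

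*TGFB1*, the main TGF-β of most tissues, lies on the minus strand of chromosome 19 (41301587 to 41353922). It was at 342, 225 and 309 CPM in siNT and at 385, 310 and 346 CPM in siLTBP2. Without regard to replicate number, the groups overlapped and the difference was within the spread of the libraries (log2 fold change 0.25, 95% interval -0.075 to 0.57, adjusted p = 0.28). An increase of up to 1.48-fold lies within this interval. At each replicate number siLTBP2 was the higher. In a fit with the replicate number as a block *TGFB1* was called (log2 fold change 0.26, adjusted p = 0.0072, edgeR quasi-likelihood). *HNRNPUL1*, which overlaps *TGFB1* on the other strand, had a log2 fold change of -0.045 (adjusted p = 0.79).

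*TGFB3*, on the minus strand of chromosome 14 (75958097 to 75983011), was scarce. Its counts were 42, 27 and 49 in siNT and 43, 43 and 45 in siLTBP2, or 0.908, 0.547 and 0.909 against 0.987, 0.909 and 0.854 CPM. Its log2 fold change had an interval from -0.36 to 0.79, and no difference was detectable at this depth (adjusted p = 0.62). Nearly all ligand transcripts per length were *TGFB1*. Its share of the sum of the 3 ligands was 98.4, 97.9 and 98.7% in siNT and 99.2, 99.1 and 98.9% in siLTBP2. The share of *TGFB2* was 1.495 ± 0.434% in siNT and 0.766 ± 0.167% in siLTBP2 (SD, n = 3), without overlap between the groups (two-sided exact permutation p = 0.1, the floor for this design). As *TGFB2* itself was already apart, its share in part restates that fall. *TGFB3* took 0.164% in both groups. The ratio of *TGFB1* to *TGFB2* CPM was 37.6 ± 11.3 in siNT and 71.9 ± 14.3 in siLTBP2 (SD, n = 3), and its libraries did not overlap either. Ratios of CPM, here and below, are not scaled to length, so they compare the groups and not the levels of the genes.

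Both receptor genes were called higher, with the larger change in the type II receptor. *TGFBR2* lies on the plus strand of chromosome 3 (30606601 to 30694142). It was at 434, 411 and 391 CPM in siNT and at 860, 835 and 753 CPM in siLTBP2. The lowest siLTBP2 library was far above the highest siNT library. The fitted log2 fold change was 0.99 (SE 0.096, adjusted p = 1.2e-04, edgeR quasi-likelihood), which ranked 105 among all tested genes by p-value. With any 1 library left out the log2 fold change lay between 0.95 and 1.04, and at the 0.05 threshold the call held with each other test, scaling and filter that was run.

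*TGFBR1*, the type I receptor kinase, lies on the plus strand of chromosome 9 (99104038 to 99154192). Its level was 66.1, 75.4 and 74.1 CPM in siNT and 81.0, 86.9 and 104 CPM in siLTBP2. The groups did not overlap, and siLTBP2 replicate 3 was the highest. This gave a log2 fold change of 0.34 (SE 0.11, adjusted p = 0.048, edgeR quasi-likelihood), close to the threshold. The call was lost with total counts in place of TMM (0.30) and without replicate 1 (0.28), 2 (0.37) or 3 (0.36) of siNT, or replicate 2 (0.36) or 3 (0.23) of siLTBP2. The ratio of *TGFBR2* to *TGFBR1* CPM was 6.57, 5.45 and 5.28 in siNT and 10.6, 9.62 and 7.22 in siLTBP2, without overlap (two-sided exact permutation p = 0.1, the floor for this design). The gap in *TGFBR2* already fixed this outcome, so the ratio is no separate evidence.

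The promoter of *TGFBR2* is shown as the start region of the gene with the largest change in the set. It comes from RefSeq (GRCh38.p14, chr3:30606351-30606650, plus strand, 250 bases before to 50 after the start site). The capitals mark the single match of TGANTCA, the word bound by AP-1 factors, which was searched on both strands.

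TGFBR2: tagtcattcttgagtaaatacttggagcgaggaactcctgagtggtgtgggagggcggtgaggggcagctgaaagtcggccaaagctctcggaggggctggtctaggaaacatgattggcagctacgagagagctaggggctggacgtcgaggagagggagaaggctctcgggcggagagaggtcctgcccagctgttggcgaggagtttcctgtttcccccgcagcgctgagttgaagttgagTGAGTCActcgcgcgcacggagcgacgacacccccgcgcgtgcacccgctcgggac

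Among the 10 genes, *TGFBR2* alone held TGANTCA in the window at its main start site, a word found in 7.71% of the 35116 promoter windows of all genes. The word CAGAC, the core of SMAD binding sites, was not in this window on either strand. Such matches describe the letters only.

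Of the SMAD transducers, *SMAD3* fell, while no change was called for *SMAD2* or *SMAD4*. *SMAD3* lies on the plus strand of chromosome 15 (67063763 to 67195173). Its level was 377, 311 and 339 CPM in the siNT libraries and 232, 246 and 229 CPM in the siLTBP2 libraries. The siLTBP2 libraries were tightly grouped, and the lowest siNT library was well above them. Their log2 fold change was -0.54 (SE 0.095, adjusted p = 0.0031, edgeR quasi-likelihood), with 68.9% of the level remaining. This estimate lay between -0.60 and -0.47 with 1 library left out, and the call held under every alternative run at the threshold of 0.05. An unnamed gene on the other strand (ENSG00000259347), whose exons overlap *SMAD3*, had between 21 and 38 counts per library.

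*SMAD2*, on the minus strand of chromosome 18 (47808957 to 47931146), was the steadiest gene of the set. Its level was 154, 158 and 154 CPM in siNT and 149, 154 and 153 CPM in siLTBP2. The groups all but met, with 154.24 CPM in the lowest siNT library and 154.22 CPM in the highest siLTBP2 library. The log2 fold change of -0.032 had a 95% interval from -0.20 to 0.13, which is a fold change of 0.871 to 1.098 (adjusted p = 0.81). *SMAD4*, the common partner, is also on chromosome 18 (51028528 to 51085045, plus strand). It was at 58.7, 63.6 and 59.6 CPM in siNT and at 64.3, 70.6 and 64.5 CPM in siLTBP2. These values did not overlap, but the log2 fold change of 0.13 was not called (95% interval -0.051 to 0.31, adjusted p = 0.31).

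The CPM ratios of the transducers shifted with *SMAD3*. The ratio of *SMAD3* to *SMAD2* CPM was 2.20 ± 0.235 in siNT and 1.55 ± 0.0483 in siLTBP2, and that of *SMAD3* to *SMAD4* was 5.66 ± 0.764 and 3.55 ± 0.0608 (SD, n = 3). For both ratios the groups were apart, with siLTBP2 the lower (two-sided exact permutation p = 0.1, the floor for this design). The ranges of the single genes already fixed this outcome, so both ratios restate the fall of *SMAD3* and are no separate evidence.

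**Figure D2:**
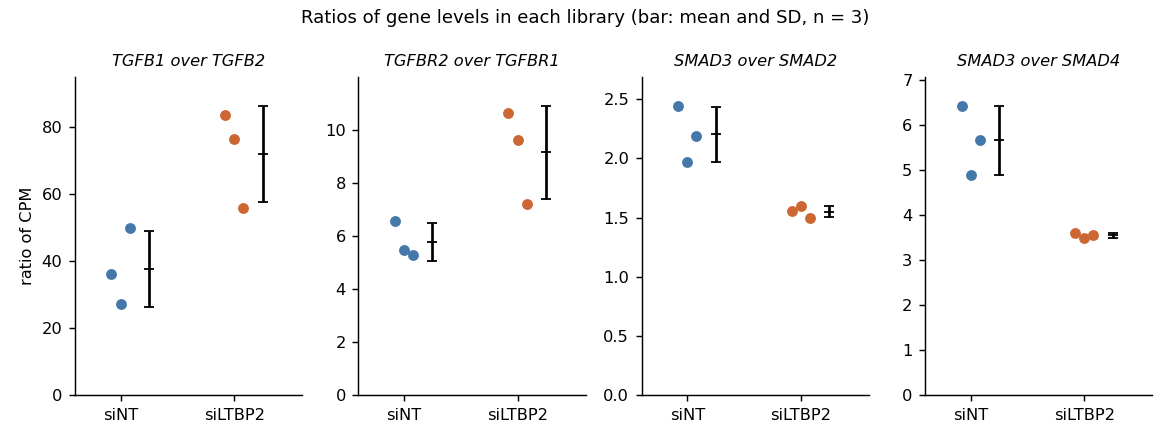
Ratios of CPM between genes of the set in each library, with siNT in blue, siLTBP2 in orange and the mean with SD (n = 3) beside the points. The groups do not overlap in any of the panels, and the 3 siLTBP2 libraries lie close together in both *SMAD3* ratios (1.499 to 1.595 over *SMAD2*, 3.48 to 3.61 over *SMAD4*).

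The *SMAD3* promoter is given for comparison with that of *TGFBR2*, as the start region of the transducer that fell. It is from RefSeq as well (GRCh38.p14, chr15:67065352-67065651, plus strand), and the capitals mark its 1 match of CAGAC, on the plus strand.

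SMAD3: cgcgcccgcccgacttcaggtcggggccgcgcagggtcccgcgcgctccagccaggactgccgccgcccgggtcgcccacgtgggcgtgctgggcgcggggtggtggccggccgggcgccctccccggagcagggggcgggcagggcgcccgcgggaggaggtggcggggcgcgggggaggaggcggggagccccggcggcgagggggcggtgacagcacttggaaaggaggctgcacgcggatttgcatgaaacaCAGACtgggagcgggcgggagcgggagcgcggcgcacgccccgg

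CAGAC was found in the windows of 5 of the 10 genes (*TGFB2*, *TGFBR1*, *SMAD3*, *SMAD7* and *SKIL*) and in 45.3% of all windows. The 5 holders included genes that rose, fell and were not called.

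The inhibitors had lower means in siLTBP2, and only *SKIL* was called. *SKIL*, on the plus strand of chromosome 3 (170357342 to 170396835), encodes SnoN, a corepressor that binds SMADs on target genes. It was at 120, 127 and 137 CPM in the siNT libraries and at 86.7, 96.5 and 116 CPM in the siLTBP2 libraries. The groups were apart, with siNT replicate 1 and siLTBP2 replicate 3 the nearest. The fitted log2 fold change was -0.36 (SE 0.11, adjusted p = 0.042, edgeR quasi-likelihood). The call held without siLTBP2 replicate 3 (-0.48) and was lost without replicate 1 (-0.41), 2 (-0.37) or 3 (-0.31) of siNT, or replicate 1 (-0.27) or 2 (-0.35) of siLTBP2.

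*SMAD7*, on the minus strand of chromosome 18 (48919853 to 48950965), encodes the inhibitory SMAD that blocks the receptors and is itself a target of the pathway. It was the most variable gene of the set relative to its level, with 21.1, 17.1 and 30.4 CPM in siNT and 10.8, 14.2 and 25.6 CPM in siLTBP2. Replicate 3 was the highest library of both groups, and the groups overlapped. The log2 fold change was -0.44, with a 95% interval from -1.07 to 0.19 (adjusted p = 0.33). Without siLTBP2 replicate 3 it was -0.87 and passed the threshold (adjusted p = 0.012), whereas without siNT replicate 3 it was -0.18 (adjusted p = 0.73). With the replicate number as a block it was -0.48 and was called (adjusted p = 4.9e-04, edgeR quasi-likelihood).

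**Figure D3:**
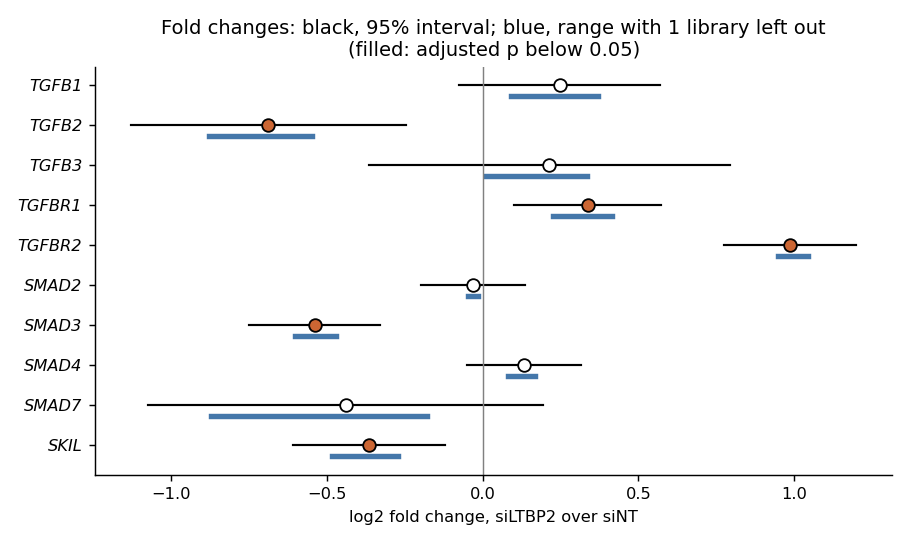
Log2 fold change of each gene (siLTBP2 over siNT) with its 95% interval in black and the range of values with 1 library left out in blue; filled points are called at an adjusted p below 0.05. *TGFBR2* (0.99) and *SMAD3* (-0.54) were called whichever library was left out, and the intervals of *TGFB1*, *TGFB3*, *SMAD2*, *SMAD4* and *SMAD7* include 0.

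A word of 7 bases, GCACCCA, had been picked out in an earlier search of these libraries as one whose carriers were lower in siLTBP2, so its presence is given as a description. It occurs in the 3′ untranslated region of the canonical transcript in 2 of the 10 genes, *SMAD3* and *SKIL*, both called lower, and in 11.8% of 12314 tested genes with such a region. *TGFB2*, also called lower, lacks it. Among the other pathway genes described below, carriers included *LRRC32* (log2 fold change 1.88) and *NEDD4L* (0.68), which rose, and *PMEPA1* (-1.11), which was called lower, while *CREBBP*, *JUNB*, *PCSK6*, *SP1* and *TRIM33* carried it and were not called. The site of *SMAD3* is printed beside the one in *LTBP2*, the gene that the siRNAs target, with the word in capitals (GENCODE 44, GRCh38, strand of the transcript).

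SMAD3 (chr15:67190655-67190684, plus strand): actgaaggggtGCACCCAcctgttttctga
LTBP2 (chr14:74500043-74500072, minus strand): catgggatacaGCACCCAtctacaaagacc

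Each of these regions holds 1 copy, as does that of *SKIL*. Whether the word has a part in the lower level of *SMAD3* or *SKIL* was not tested.

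Other genes of the pathway were described from 6 lists by role, holding 98 genes, of which 89 were tested. Of these, 27 (30.3%) were called, 17 higher and 10 lower, beside 19.3% of all tested genes. Their median log2 fold change was 0.054. The lists were written with earlier results of these data known, so the share is a description.

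**Figure D4:**
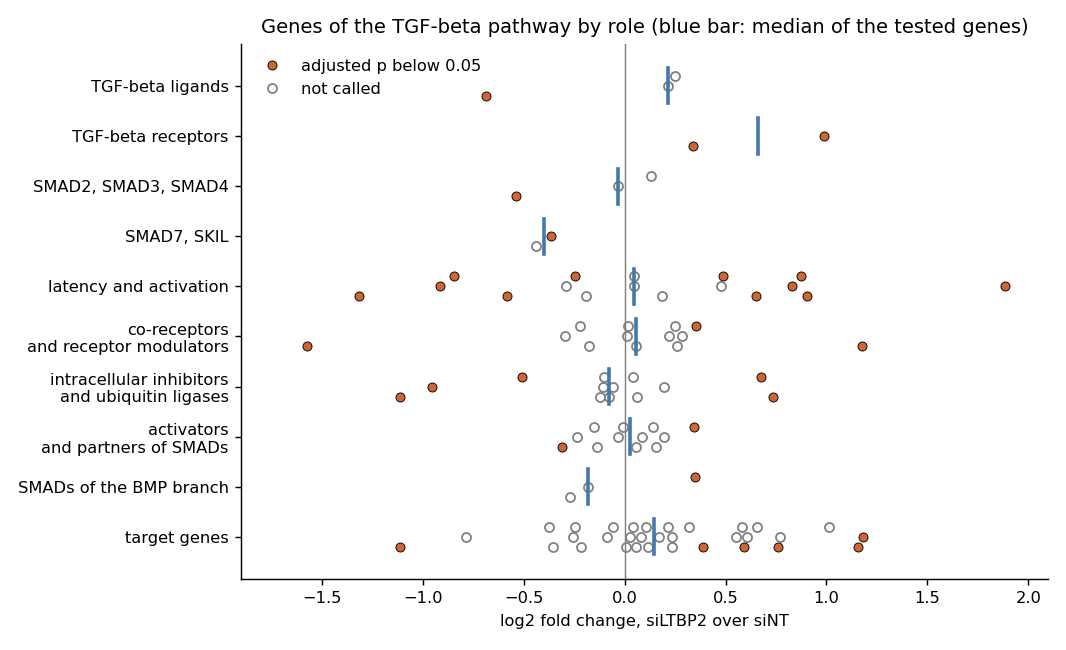
Log2 fold change (siLTBP2 over siNT) of the tested genes of each role, filled where the adjusted p was below 0.05, with the median of each role as a blue bar. The latency and activation genes ran from *THBS1* (-1.32) to *LRRC32* (1.88) around a median of 0.046.

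The genes of latency and activation, which store and release the ligand, moved in both directions: of 17 tested, 6 were called higher and 5 lower (64.7% called, beside 19.3% of all tested genes). *LTBP1*, the main protein that holds latent TGF-β in the matrix, was at 165, 116 and 136 CPM in siNT and at 295, 250 and 220 CPM in siLTBP2 (log2 fold change 0.87, adjusted p = 0.0020, edgeR quasi-likelihood). Its relative *LTBP3* fell from 61.0 ± 7.70 to 32.4 ± 5.83 CPM (SD, n = 3). Both were called whichever library was left out. *LTBP4* was at 182, 193 and 141 CPM in siNT and at 123, 140 and 80.9 CPM in siLTBP2, so that the groups nearly met (141.04 against 140.09 CPM). Its call (log2 fold change -0.58) was lost with upper-quartile factors (-0.59), with a filter of 1 CPM in 3 libraries (-0.59) and without replicate 1 (-0.54) or 2 (-0.49) of siNT, or replicate 1 (-0.64) or 3 (-0.38) of siLTBP2.

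Among the proteins that free or process the ligand, *THBS1* (thrombospondin, an activator of latent TGF-β) had a log2 fold change of -1.32 and *FURIN* (the protease that cuts the TGF-β precursor) one of -0.84. *ITGB1* (0.90), a subunit of integrins that bind the latent complex, and *MMP14* (0.83), a membrane protease, rose. All 4 kept their calls with any library left out. *LRRC32*, which docks latent TGF-β on the cell surface and was singled out after its values were seen, was at 0.344 ± 0.0829 CPM without and 1.27 ± 0.207 CPM with silencing (SD, n = 3). The integrin genes *ITGB6* and *ITGB8*, which encode the best known activators, had at most 3 counts in any library.

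At the receptors, 3 of 13 tested genes were called (23.1%), near the 19.3% of all tested genes. *BAMBI*, a pseudoreceptor that blocks signalling, was at 117, 109 and 78.8 CPM in siNT and at 39.2, 39.7 and 23.2 CPM in siLTBP2 (log2 fold change -1.58, adjusted p = 5.4e-04, edgeR quasi-likelihood). *NRP1*, a co-receptor of several ligands, rose from 263 ± 34.5 to 594 ± 38.2 CPM (SD, n = 3). Both calls held with any library left out. *TGFBR3* (betaglycan, which presents TGF-β2 to TGFBR2) was at 82.9 ± 11.3 CPM without and 106 ± 2.26 CPM with silencing (SD, n = 3). Its log2 fold change was 0.36. This call was lost with total counts (0.32) and without replicate 2 (0.39) or 3 (0.25) of siNT, or replicate 1 (0.35) or 2 (0.34) of siLTBP2. *ENG* (endoglin) had a log2 fold change of 0.22 and was not called (adjusted p = 0.31). The ratio of *TGFBR2* to *TGFBR3* CPM was 5.01 ± 0.484 in siNT and 7.69 ± 0.374 in siLTBP2 (SD, n = 3).

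Of 13 further inhibitors inside the cell, 2 were called higher and 3 lower (38.5% called, beside 19.3% of all tested genes). *SMAD6*, the inhibitory SMAD that acts mainly on the BMP branch, was at 24.3, 21.0 and 21.0 CPM in siNT and at 12.2, 11.8 and 10.2 CPM in siLTBP2. The groups were far apart (log2 fold change -0.95, adjusted p = 3.9e-04, edgeR quasi-likelihood), unlike those of *SMAD7*. The corepressor *TGIF1* rose from 29.0 ± 0.901 to 48.3 ± 0.291 CPM, and *NEDD4L*, a ubiquitin ligase for activated SMADs, from 45.4 ± 4.58 to 72.6 ± 10.3 CPM (SD, n = 3). All 3 kept their calls with any library left out. *SKI*, the closest relative of *SKIL*, was at 185, 146 and 171 CPM in siNT and at 183, 160 and 175 CPM in siLTBP2, and its log2 fold change of 0.042 was not called (adjusted p = 0.82). It turned to -0.046 without siNT replicate 2 and to -0.00036 without siLTBP2 replicate 1.

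*PMEPA1*, a feedback inhibitor induced by TGF-β, was at 12.8, 6.77 and 6.71 CPM in siNT and at 6.08, 3.53 and 2.56 CPM in siLTBP2. Its log2 fold change of -1.11 was called, but not by DESeq2 nor without replicate 1 (-0.75) or 2 (-1.27) of siNT, or replicate 2 (-1.03) or 3 (-0.86) of siLTBP2. *TGIF2*, a relative of *TGIF1*, was called lower (-0.51) and lost its call without replicate 1 (-0.40) or 3 (-0.54) of siNT, or replicate 2 (-0.44) or 3 (-0.46) of siLTBP2.

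The activators and partners of SMADs had 2 calls among 12 tested genes (16.7%), near the 19.3% of all tested genes. *TAB2*, an adaptor of the kinase TAK1, had a log2 fold change of 0.34, which was not called without siLTBP2 replicate 2 (0.34). In the BMP branch, *SMAD5* had 120 ± 7.95 CPM without and 153 ± 1.08 CPM with silencing (SD, n = 3), and a log2 fold change of 0.35 that was not called without replicate 3 (0.30) of siNT, or replicate 2 (0.34) of siLTBP2. *SMAD1* (-0.18) and *SMAD9* (-0.27) were not called.

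Known target genes of TGF-β were called about as often as all genes, 6 of 32 tested (18.8%), 5 higher and 1 lower, with a median log2 fold change of 0.14. *LOX*, the collagen cross-linking enzyme (1.18), *TAGLN*, an actin binding protein of contractile cells (1.16), and *FN1*, fibronectin (0.76), rose and kept their calls with any library left out. *SERPINE2* (0.59) and *BHLHE40* (0.39) were called with all libraries. *SERPINE2* lost its call without replicate 1 (0.67) or 2 (0.38) of siNT, or replicate 1 (0.57), 2 (0.68) or 3 (0.52) of siLTBP2, and *BHLHE40* without replicate 2 (0.42) or 3 (0.32) of siNT, or replicate 1 (0.36) or 2 (0.33) of siLTBP2. The one called lower was *PMEPA1*, described above.

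Several targets in common use as readouts of the pathway were not called with all libraries. *CCN2* had a log2 fold change of 0.21, which was -0.11 without siLTBP2 replicate 3, and *INHBA* one of 0.12, which was -0.14 without that library. *TGFBI* (-0.26), *COL1A1* (-0.22) and *ACTA2* (0.23) were not called with all libraries, while *TGFBI* was called without siNT replicate 2 (-0.37) and *ACTA2* without siLTBP2 replicate 3 (0.39). *ID1*, an immediate target of the BMP branch, had a log2 fold change of 0.66 (adjusted p = 0.22), and was called without siNT replicate 3 (1.11) and with no filter on low counts (0.64). *ELN*, *COMP*, *CTHRC1*, *NOX4* and *CNN1* had at most 5 counts in any library.

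**Figure D5:**
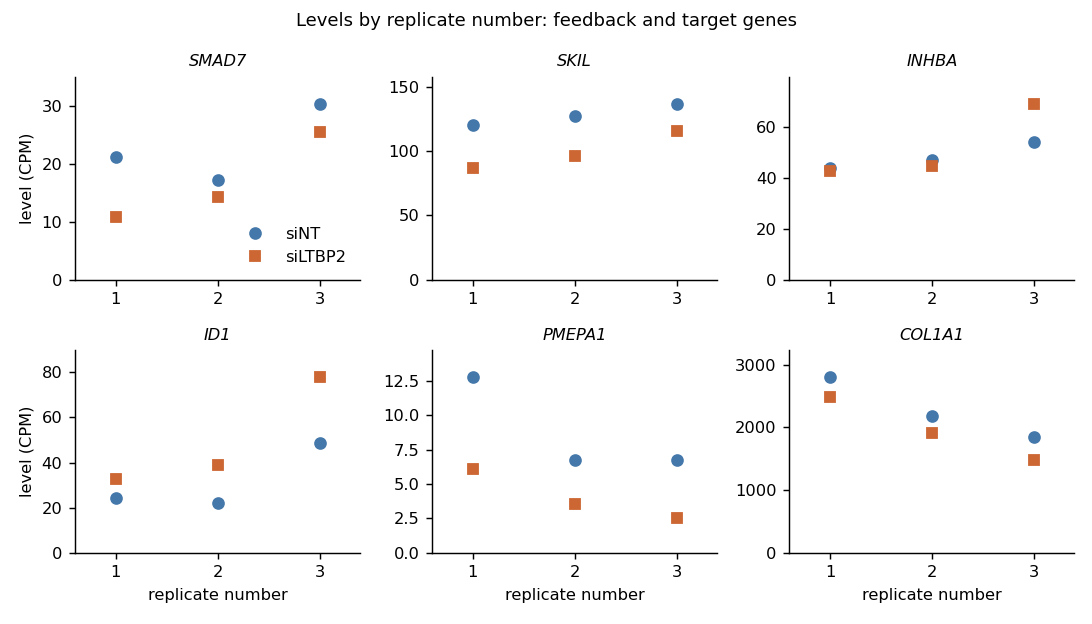
Levels in CPM of *SMAD7*, *SKIL* and 4 target genes by replicate number, with siNT as blue circles and siLTBP2 as orange squares. Replicate 3 of both groups was the highest for *SMAD7*, *SKIL*, *INHBA* and *ID1*, and replicate 1 of both groups for *PMEPA1* and *COL1A1*.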

How the data were processed

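For the 6 samples of CCD18Co cells, stranded total RNA libraries were prepared after removal of ribosomal RNA. The authors aligned paired reads to GRCh38 with STAR 2.7.1a and counted reads per gene with HTSeq 0.11.2, the versions being those of the submitters' processing notes. The deposited values are raw counts. For the annotation release and for the strand setting, nothing is stated in the sources read, so reads of overlapping genes may be shared. Gene positions are from GENCODE 44 (GRCh38), where 8 of the 10 genes start at the deposited position, *SMAD4* and *SKIL* being the exceptions.

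Counts were filtered with filterByExpr, scaled by TMM and tested with edgeR 4.0.16 in R 4.3.3 (glmQLFit and glmQLFTest, two-sided, no block, Benjamini-Hochberg adjustment). The SE of a log2 fold change was taken as its size over the root of F, and intervals cover 95%. The alternatives were the likelihood ratio test of the study's methods, DESeq2 1.42.0, other scalings and filters, a replicate block, stricter thresholds and the omission of each library in turn. The steps were also run on simulated counts, drawn independently for each library. Such counts hold no structure by replicate number, so that run says nothing on how the calls depend on it. Replicates were not duplicates (chi-square per degree of freedom at least 28.0 for each pair), and depth limited precision at low counts, as for *TGFB3*.

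The members and the lists were chosen with earlier results of these data known. Named genes were the 10 members, *LTBP2*, 16 further pathway genes whatever their values, and in each list up to 6 called genes with a mean of at least 1 CPM, by size of change; *LRRC32*, *PDGFRB*, *SMAD1*, *SMAD9*, *TEK*, *VWF*, *CSF1R*, the uncalled carriers of the searched word and genes at a few counts were named after their values were seen. Of these, 2 genes are not reported here. No set test was run.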

Additional observations from a re-analysis of the deposited data

How the results depend on the processing

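Of the 10 genes, 5 were called with all libraries, 2 of them at an adjusted p below 0.01 (*TGFBR2* and *SMAD3*) and 0 when a fold change above 2 was also required. With 1 library left out, 2 to 5 were called. The count over all genes was 1550 at an adjusted p below 0.01 and 434 with the fold change, against 3261, and lay between 2158 and 2781 with 1 library left out. Of the pathway genes on the lists, 15 and 6 were called at these thresholds, against 27, and 19 to 25 with 1 library left out. The stricter thresholds can only lower the counts, by construction. With a library left out single genes also gained calls, such as *SMAD7* without siLTBP2 replicate 3. Why the counts changed with a library left out was not tested.

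The correlations of deviations within a replicate number were 0.30, 0.083 and 0.43, all positive, of which 1 fell short of 0.1. Those between numbers lay between -0.39 and 0.10. siNT replicate 2 correlated best with siLTBP2 replicate 1 (0.10), while siLTBP2 replicate 2 correlated best with siNT replicate 2 (0.083). The main fit did not take the numbers to pair the libraries, and whether they do was not tested. With the replicate block 6131 genes were called, 52 of the pathway genes on the lists and 7 of the 10 genes, *TGFB1* (log2 fold change 0.26, adjusted p = 0.0072 from edgeR) and *SMAD7* (-0.48, adjusted p = 4.9e-04) being added. Of the pathway genes named as not called, *TGFBI* (-0.25, adjusted p = 0.011), *COL1A1* (-0.23, 0.023), *ACTA2* (0.23, 0.015), *ENG* (0.23, 0.018) and *ID1* (0.65, 1.5e-07) were called with the block. *SMAD7* was also called with no filter on low counts (-0.45, adjusted p = 0.0057). For these changes the cause was not tested.

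The difference in the share of *TGFB3* among the ligands was 1.8e-05 percentage points. It turned to -0.00016 with canonical transcript lengths and lay between -0.0087 and 0.0086 with 1 library left out, so it has no stable direction. That of *TGFB1* lay between 0.516 and 0.933 and that of *TGFB2* between -0.941 and -0.508 percentage points. Across the single genes, 527 values under an alternative kept direction and side of the threshold, 52 lost a call, 18 gained one and 4 reversed, which were *CCN2* (-0.11) and *INHBA* (-0.14) without siLTBP2 replicate 3 and *SKI* without siNT replicate 2 (-0.046) or siLTBP2 replicate 1 (-0.00036). Their highest values with 1 library left out were 0.42, 0.24 and 0.11.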

Other observations

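The target genes of TGF-β often had their highest library at the same replicate number in both groups. Of the 32 tested, 12 were highest in replicate 3 of both groups, against 20.1% of all tested genes, and 13 were highest in replicate 1 of both groups, against 17.5%. Replicate 2 was the highest of both groups for 1 of them, against 12.1%. Those highest in replicate 3 included *ID1*, *ID2*, *ID3*, *IL11*, *TPM1*, *SERPINE2* and *NUAK1*, those highest in replicate 1 included *COL1A1*, *COL1A2*, *COL3A1*, *COL5A1*, *SNAI1* and *PMEPA1*, and *JUNB* was highest in replicate 2.

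*ID1* was at 24.1, 22.1 and 48.7 CPM in siNT and at 32.6, 39.0 and 78.0 CPM in siLTBP2, so that replicate 3 was the highest of both groups. *COL1A1* was at 2808, 2182 and 1846 CPM in siNT and at 2481, 1919 and 1475 CPM in siLTBP2, with replicate 1 the highest of both. *SMAD7* had its highest library in replicate 3 of both groups, as did *SKIL*. That is 2 of the 10 genes of the set, near the 20.1% of all tested genes. Replicate 1 and replicate 2 were each the highest of both groups for 2 of the 10 genes as well. *ID1*, *COL1A1*, *SMAD7* and *SKIL* were looked at after their values were seen, and what the replicate numbers share was not tested.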
